A study of Mus musculus with 34 samples.

Results

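Hepatocytes of uninjured livers were compared between mice in which the coactivators YAP and TAZ had been deleted from the bile duct epithelium and their control siblings. The comparison rests on 11 hepatocyte libraries, chosen by their group label, of 34 libraries in the series, which also holds liver macrophages and livers given carbon tetrachloride (CCl4). Both groups carried floxed alleles of Yap1 and of Wwtr1, the gene of TAZ (Yap fl/fl Taz fl/fl), on a mixed B6;129P background. The 5 knockout libraries came from mice that also carried Opn-iCreERT2, which places a Cre recombinase activated by tamoxifen under control of the osteopontin promoter, and the 6 control libraries from siblings without it. All mice received tamoxifen, 1.6 mg/kg on 5 days at 7 to 8 weeks of age, then a washout of 3 weeks. Without Cre, the controls do not account for an effect of the recombinase itself. Livers were perfused with pronase and collagenase, and hepatocytes were recovered by low-speed centrifugation, a Percoll gradient and sorting for the exclusion of propidium iodide, with no antibody. Libraries are named below by the number in their titles. No label says outright that each library is another animal, so p-values measure the spread between these libraries.

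YAP and TAZ carry signals of the Hippo pathway into the nucleus, where they bind TEAD transcription factors and drive genes of growth, adhesion and matrix. In the adult liver they are most active in the cells that line the bile ducts. Hepatocytes make bile and pass it into these ducts, take up and detoxify what returns from the gut, and secrete most plasma proteins, so a gene change in them here is one seen in a cell type at which the Cre driver was not aimed.

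The libraries hold 3′ tags of polyadenylated RNA and their totals ran from 991175 to 7535053 counts. The numbers of the sequencing files fall into 2 series, up to 14 and from 25, and the first holds only the control libraries 2, 7 and 8 of this comparison. Those 3 had 6082692 to 7535053 counts, the 3 controls of the second series 991175 to 1250378 and the 5 knockout libraries, all of the second series, 1262867 to 1835324. File series and depth therefore cannot be told apart. Results come from a fit without the series, and are set beside a fit with the series as a term and beside the second series alone (3 control against 5 knockout libraries). The 9 measured hepatocyte markers were above 0 in all 11 libraries, and their summed level was 64216 to 99298 CPM, counts scaled to a fixed library total, in the controls and 81640 to 92645 in the knockouts.

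Yap1 and Wwtr1 were measured first. Yap1 (chromosome 9, 7931999 to 8004596, GRCm38) lay at 37.9 to 48.4 CPM in the controls and 38.2 to 49.6 in the knockouts, where CPM here and below are scaled by TMM factors unless given as a share of the library total. Between knockout and control it had a log2 fold change of 0.02 ± 0.141 SE with adjusted p = 0.952. Wwtr1 (chromosome 3, 57455649 to 57575910) had a log2 fold change of 0.52 ± 0.215 SE with adjusted p = 0.132, and 0.71 (adjusted p = 0.1996) with the series term. Neither gene passed the test on the TMM scale, and the ranges of both groups overlapped. With library totals as the scale, by which the median over all genes was 0.29, edgeR called Wwtr1 higher (0.82, adjusted p = 0.0148). Yap1 was not called on that scale (0.30, adjusted p = 0.184). Because the deletion was directed at another cell type and a 3′ tag may lie outside the deleted part, these values do not check the genotype labels. Of the 10 measured genes of the Hippo core, the kinases and TEAD factors included, edgeR called 0, with 1 higher and 1 lower at an unadjusted p under 0.05, and DESeq2 and limma voom called 0 as well.

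Of 9679 genes tested, 449 were higher in knockout hepatocytes (4.64%) and 313 lower (3.23%) by edgeR's quasi-likelihood test at a Benjamini-Hochberg adjusted p under 0.05. With the series as a term 61 were higher (0.63%) and 18 lower (0.186%). In the second series alone, of 10274 genes tested 36 were higher (0.35%) and 14 lower (0.136%). In both directions together, 2502 of the 9679 genes had an unadjusted p under 0.05 in the fit without the series. With the series as a term there were 1399, and limma voom on all libraries gave 2672. List counts at that cut in these fits, above and below, are to be read beside these totals and are not calls. Groups without overlap were found for 173 genes with every knockout library above every control (1.79%) and for 169 with every one below (1.75%). The median log2 fold change over all genes tested was 0.01, and 0.29 when libraries were scaled by their totals alone, by which 1313 genes were higher and 125 lower. Of the 762 called genes 760 kept their direction with the series term, as the plot of both fits shows, and 72 were called in both. Both fits use the same libraries and the first chose the genes, so the kept directions were largely set in advance. They do not show that the file series matters little, and the share over all genes was not computed. Leaving out control library 2 or 8 left 318 or 354 called genes, knockout library 4 or 20 left 288 or 352, and control library 7 or knockout library 5 left 524 or 440. With the series term the count ran from 30 without control library 9 to 182 without knockout library 21.

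**Figure D1:**
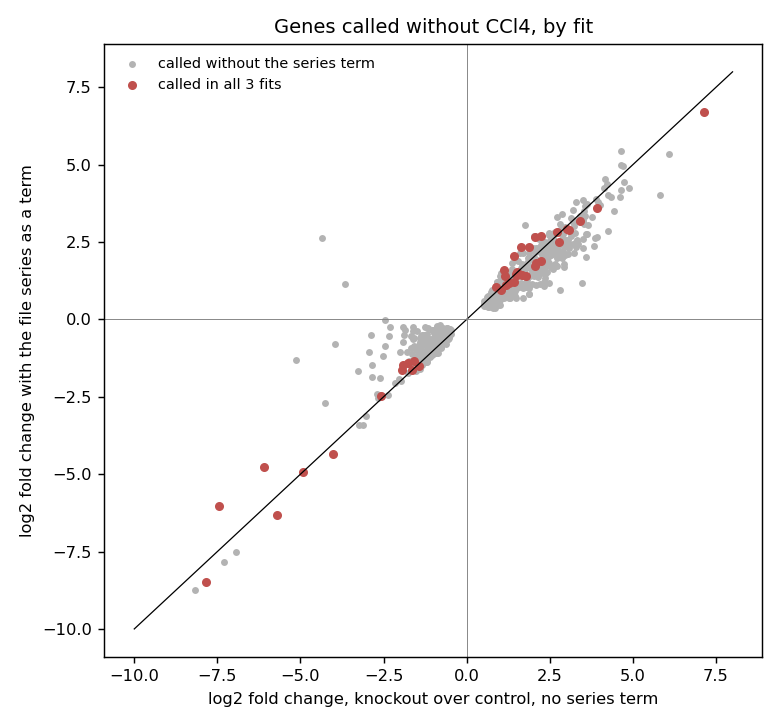
Each point is 1 of the 762 genes called in the fit without the file series, with its log2 fold change of knockout over control in that fit (horizontal axis) and with the series as a term (vertical axis). The line marks equal values. Red points are the 40 genes called in the same direction in all 3 fits, and 2 grey points lie on the other side of 0 in the fit with the series.

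In all 3 fits 40 genes, 27 higher and 13 lower, were called in the same direction. Of the 40 genes, 37 were also called with each of the 11 libraries left out in turn, the exceptions being Try4, Jcad and Ets2, and 20 were so with the series term. The groups did not overlap for 23 of the 27 and 10 of the 13. The 3 fits share libraries and chose these genes. Their fold changes, leave-out counts and lack of overlap are therefore a description, and do not show that other libraries would repeat them. Of the higher genes, 15 and all 13 lower ones follow the naming rule, and the others of the 40 named here were picked after their values were seen, unless they lead a gene list.

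Cib3 had the largest increase. It encodes a calcium and integrin binding protein that is known mainly from the mechanotransduction of inner ear hair cells. The gene (chromosome 8, 72204335 to 72212837) stood at 209 CPM in library 4, 158 in 5, 126 in 10, 101 in 20 and 139 in 21 of the knockouts. In the controls it had lowest 0, median 0.618 and highest 4.69 CPM, and no control value came near a knockout value. The log2 fold change was 7.14 ± 0.465 SE with adjusted p = 5.27e-09, 6.69 (adjusted p = 4.15e-05) with the series term and 6.62 (adjusted p = 0.000113) in the second series.

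Promoters of 3 of the higher genes and 1 lower gene are shown because these genes lead the groups described below and because Ccn1 is a textbook target of YAP and TEAD. The bases are those before the annotated start, cut to 199 for Nid1 and 215 for Sult5a1 so that none lies within the GENCODE gene, from RefSeq, build GRCm38.p6, 5′ to 3′ on the gene's strand, and capitals mark the letters GGAATG, the core of the TEAD motif, or its reverse complement.
Cib3 (chr8:72212838-72213087, minus strand): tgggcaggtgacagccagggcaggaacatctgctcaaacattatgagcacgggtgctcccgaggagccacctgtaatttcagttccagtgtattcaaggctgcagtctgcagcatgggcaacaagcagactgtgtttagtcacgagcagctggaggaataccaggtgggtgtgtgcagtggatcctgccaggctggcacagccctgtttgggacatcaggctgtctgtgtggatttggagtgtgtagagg
Ccn1 (chr3:145649986-145650235, minus strand): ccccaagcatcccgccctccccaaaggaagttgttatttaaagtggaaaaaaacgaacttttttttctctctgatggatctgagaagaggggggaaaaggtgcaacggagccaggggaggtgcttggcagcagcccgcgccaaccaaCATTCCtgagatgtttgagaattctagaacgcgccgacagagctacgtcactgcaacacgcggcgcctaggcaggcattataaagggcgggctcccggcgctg
Nid1 (chr13:13437352-13437550, plus strand): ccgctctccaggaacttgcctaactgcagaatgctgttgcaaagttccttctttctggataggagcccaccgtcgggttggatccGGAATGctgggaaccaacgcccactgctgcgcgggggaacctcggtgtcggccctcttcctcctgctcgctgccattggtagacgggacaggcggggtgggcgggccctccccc
Sult5a1 (chr8:123158316-123158530, minus strand): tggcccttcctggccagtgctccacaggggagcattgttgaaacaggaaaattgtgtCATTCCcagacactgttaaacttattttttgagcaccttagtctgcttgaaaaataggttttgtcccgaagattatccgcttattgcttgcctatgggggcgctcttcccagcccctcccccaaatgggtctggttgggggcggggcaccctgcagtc
The letters GGAATG, sought on both strands in the full 250 bases before each RefSeq start, occurred in 5 of the 19 higher genes with a matched promoter and in 5 of the 12 lower ones, against 14.4% of all 27025 genes in that table. TGANTCA, the AP-1 motif, occurred in 2 and 0 (7.8% of all), and TGACNNNGC, the core of the antioxidant response element, in 3 and 1 (11.5%). The Cib3 window held none of the 3. A match in this window is a description and not a binding site. BC005561, Eppk1, H2-Q1, Ifi27l2b, Jcad, Ly6e, Myc, Thbd and Mup12 were not matched.

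Nid1, the gene of the basement membrane linker nidogen 1 (chromosome 13, 13437551 to 13512269), followed. Knockout libraries had 94.5 CPM in library 4, 50.3 in 5, 26.7 in 10, 67.4 in 20 and 29.1 in 21. The controls had lowest 0.902, median 3.03 and highest 8.49 CPM, so that every knockout library was above every control. Its log2 fold change was 3.93 ± 0.424 SE with adjusted p = 2.95e-05, 3.59 (adjusted p = 0.00247) with the series term and 3.66 (adjusted p = 0.0354) in the second series. Other basement membrane genes moved the same way in the fit without the series, in which 4 of 9 measured members rose and 0 fell (median log2 fold change 1.28, with the series term 1 of 9). Collagen IV genes Col4a1 (2.15 ± 0.459 SE with adjusted p = 0.0113) and Col4a2 (1.28 ± 0.352 SE with adjusted p = 0.0316) and the laminin chain gene Lamc1 (1.38 ± 0.338 SE with adjusted p = 0.018) were the other 3. Leaving out knockout libraries 4 and 5 left 1 of the 9. Over all genes it left 129 higher and 34 lower of 9276 tested, against 449 and 313 of 9679 with all libraries. List counts below without these libraries are to be read beside those totals. In libraries 4 and 5 the summed markers of stellate cells, which also make these proteins, were highest, at 1355 and 914 CPM of the library total. The controls had 14 to 457 CPM, and the part of stellate cells in the result was not tested. In bulk RNA, more cells of a type and more RNA per cell cannot be told apart.

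Genes of the keratin and actin skeleton formed the next group. Krt8 (chromosome 15, 101996698 to 102004482), which encodes one of the keratins of hepatocytes and bile duct cells alike, had 129.98 CPM in library 4, 112 in 5, 121 in 10, 210.3 in 20 and 106 in 21 of the knockouts. In the controls it had lowest 29.7, median 48.2 and highest 63.1 CPM, again without overlap. The log2 fold change of Krt8 was 1.52 ± 0.214 SE with adjusted p = 0.000271 and 1.43 (adjusted p = 0.00701) with the series term, and that of its partner keratin Krt18 was 1.42 ± 0.222 SE with adjusted p = 0.000721 and 1.22 (adjusted p = 0.0159). The keratin linker Eppk1 lay at 26.6 to 52 CPM in the knockouts and 4.69 to 24.4 in the controls (log2 fold change 1.43 ± 0.308 SE with adjusted p = 0.00958). Pls1, an actin bundler of epithelial microvilli, had 20.04 CPM in library 4, 32.5 in 5, 15.2 in 10, 48.1 in 20 and 15.4 in 21. Control values of Pls1 were lowest 1.06, median 2.32 and highest 5.87 CPM, and the log2 fold change was 3.4 ± 0.366 SE with adjusted p = 1.37e-05. Anxa5, which binds membranes in a calcium-dependent manner, reached 85.7 to 178 CPM against 20.6 to 46 (2.09 ± 0.231 SE with adjusted p = 1.72e-05). Dmpk, the kinase gene named for myotonic dystrophy, was at 24.8 to 58.1 against 1.7 to 8.49 CPM (3.02 ± 0.324 SE with adjusted p = 1.44e-05). It was among the genes with at least 5 times as many CPM in control macrophages as in knockout hepatocytes, called macrophage-rich below.

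The list of 26 actin cytoskeleton genes had 10 higher and 0 lower members without the series term (median 0.93), and 1 higher with it, Anxa5. Tropomyosin 1, Tpm1 (0.92 ± 0.175 SE with adjusted p = 0.00437), the myosin light chain gene Myl12a (0.80 ± 0.17 SE with adjusted p = 0.00845) and Tagln2 (2.26 ± 0.452 SE with adjusted p = 0.00845) were among them. Without knockout libraries 4 and 5, those highest in Kupffer, stellate and endothelial markers, the count was 1. Calls over all genes fell from 762 to 163 as well, and the part of such cells was not tested. Of 27 measured genes of epithelial junctions and keratins, 3 were higher and 0 lower. These were Krt8, Krt18 and the tight junction gene Ocln, at 16.6 to 24.8 CPM in the knockouts and 7.43 to 16.2 in the controls (0.83 ± 0.24 SE with adjusted p = 0.0383), and the last was no longer called with the series term (0.61 (adjusted p = 0.342)).

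Myc, Plk2, Dusp8, Tgif1 and Ets2 were grouped here after their values were seen. Myc (chromosome 15, 61985391 to 61990374), the transcription factor of cell growth, had 14.4 CPM in library 4, 12.7 in 5, 9.38 in 10, 28.1 in 20 and 3.43 in 21. Its controls had lowest 0.902, median 1.78 and highest 3.12 CPM, and the lowest knockout value, in library 21, was just above the highest control. Its log2 fold change was 2.71 ± 0.39 SE with adjusted p = 0.000271 and 2.84 (adjusted p = 0.00718) with the series term. Plk2, a p53-induced kinase, had 16.3 to 31.8 CPM in the knockouts and 2.71 to 11.7 in the controls (2.04 ± 0.299 SE with adjusted p = 0.000413), and Dusp8, a phosphatase of stress kinases, 5.14 to 23.1 and 0 to 3.81 (2.25 ± 0.402 SE with adjusted p = 0.00222). Among 28 G1/S and p53 genes these 2, Myc and Plk2, and cyclin E1, Ccne1 (1.99 ± 0.606 SE with adjusted p = 0.0428), were higher and 0 lower, and 25 were not called (median 0.27). The series-term fit called 3 of the 28 as well, with Ccnd1 in place of Ccne1. The transcription factor genes Tgif1 (1.16 ± 0.225 SE with adjusted p = 0.00528) and Ets2 (1.13 ± 0.2995 SE with adjusted p = 0.0288) were also among the 40.

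Ccn1 is secreted into the matrix and is a direct target of YAP. Ccn1 (chromosome 3, 145646976 to 145649981) had 130.5 CPM in library 4, 127 in 5, 166 in 10, 115 in 20 and 87.4 in 21. Controls had lowest 9.63, median 29.4 and highest 37.8 CPM, without overlap. The log2 fold change of Ccn1 was 2.22 ± 0.336 SE with adjusted p = 0.000821, 1.87 (adjusted p = 0.036) with the series term and 2.2 (adjusted p = 0.000276) in the second series. Of 17 measured YAP and TAZ targets 5 were higher and 0 lower (median 0.88), and 1, Ccn1, with the series term. Tgfb2 (2.24 ± 0.559 SE with adjusted p = 0.0177), Crim1 (1.17 ± 0.326 SE with adjusted p = 0.0329), the receptor gene Axl (2.76 ± 0.788 SE with adjusted p = 0.0423) and Ajuba were called without it and not with it. Leaving out knockout libraries 4 and 5 left 1 called member and a median of 0.13, and 5 of the 17 were macrophage-rich.

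Of the 27 higher genes, 7 encode surface or interferon-inducible proteins and were grouped here after their values were seen. Ifi27l2b, an interferon-inducible mitochondrial gene (chromosome 12, 103450898 to 103457223), had 73 CPM in library 4, 56 in 5, 81.6 in 10, 133 in 20 and 70.3 in 21. Its controls had lowest 8.81, median 11.2 and highest 16.5 CPM. The log2 fold change of Ifi27l2b was 2.78 ± 0.252 SE with adjusted p = 1.48e-06, 2.5 (adjusted p = 0.000143) with the series term and 2.69 (adjusted p = 0.000315) in the second series. Ly6e, a membrane-anchored interferon-inducible protein, lay at 521 to 937 CPM against 192 to 294 (1.52 ± 0.183 SE with adjusted p = 4.62e-05). The ion channel genes Tmem176a (1.05 ± 0.163 SE with adjusted p = 0.000721) and Tmem176b (1.29 ± 0.182 SE with adjusted p = 0.000271) overlap on opposite strands, so their reads may not be separable. The class I gene H2-Q1 had 13.9 to 33.9 CPM in the knockouts and 2.12 to 9.35 in the controls (2.05 ± 0.307 SE with adjusted p = 0.000496), with the caution that its reads can be shared with other class I genes. The tetraspanin gene Cd9 (1.79 ± 0.274 SE with adjusted p = 0.000597) and the thrombomodulin gene Thbd (3.08 ± 0.528 SE with adjusted p = 0.00108) completed the group, and Thbd, known from endothelium, was macrophage-rich. Of 23 listed interferon-stimulated genes, 1 was higher and 0 lower without the series term (median -0.28) and 0 with it by edgeR (3 higher and 0 lower at an unadjusted p under 0.05).

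Among secreted proteins and enzymes, the ferroxidase ceruloplasmin, Cp (chromosome 3, 19957054 to 20009145), had 12401 CPM in library 4, 9467 in 5, 6959 in 10, 9007 in 20 and 5525 in 21. The control values of Cp were lowest 1934, median 2924 and highest 3375 CPM, and the log2 fold change was 1.65 ± 0.222 SE with adjusted p = 0.000174 and 1.44 (adjusted p = 0.00384) with the series term. Alkaline phosphatase, Alpl, an enzyme of the canalicular membrane that rises in serum in cholestasis, had 18.5 CPM in library 4, 17.2 in 5, 12.3 in 10, 17 in 20 and 5.14 in 21. In the controls it had lowest 1.8, median 2.89 and highest 5.52 CPM, so knockout library 21 lay within the control range (1.88 ± 0.333 SE with adjusted p = 0.00222). Sulfiredoxin, Srxn1, a repair enzyme of peroxiredoxins, had a log2 fold change of 0.87 ± 0.1998 SE with adjusted p = 0.013, the junctional gene Jcad 1.65 ± 0.411 SE with adjusted p = 0.0198, the membrane scaffold gene Mpp1 1.19 ± 0.174 SE with adjusted p = 0.000413 and the uncharacterised BC005561 1.47 ± 0.176 SE with adjusted p = 4.62e-05.

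**Figure D2:**
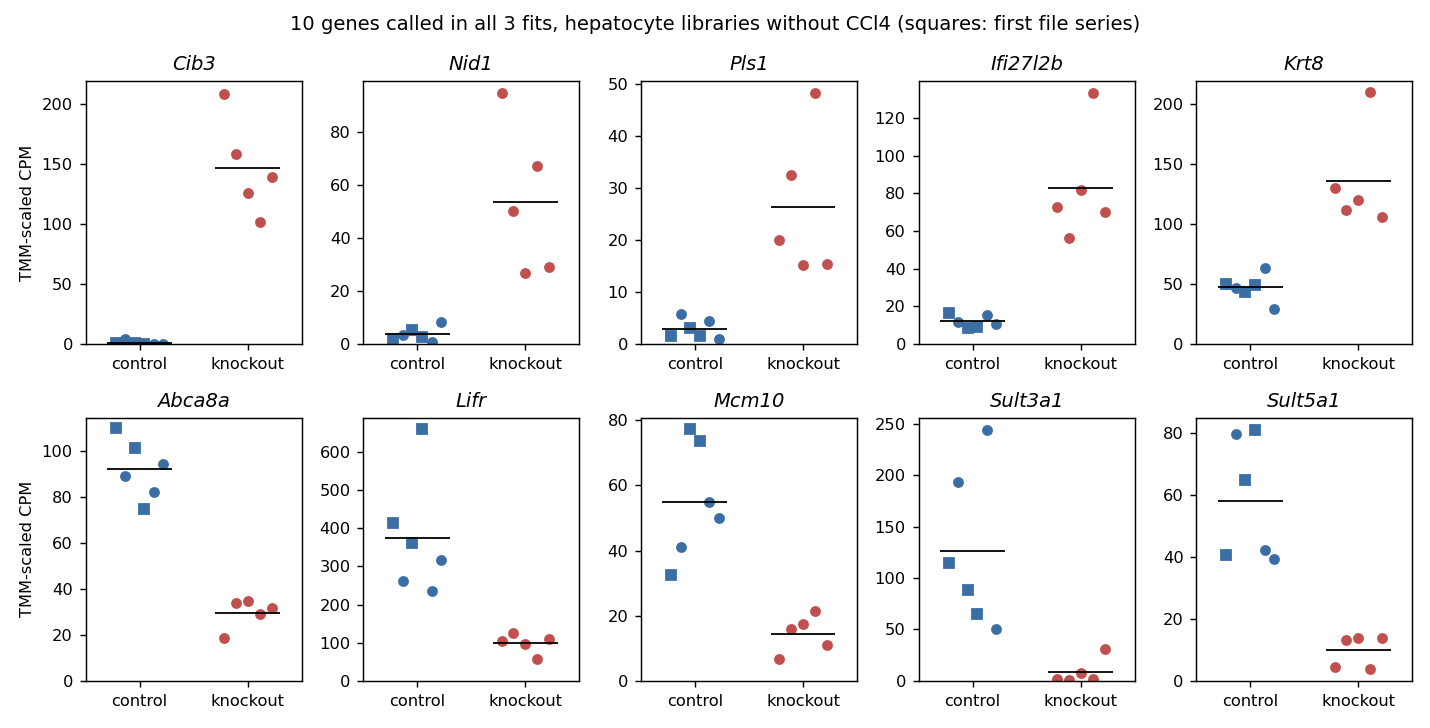
TMM-scaled CPM of 10 genes called in all 3 fits, 1 point per library, for 6 control (blue) and 5 knockout (red) hepatocyte libraries without CCl4, with the mean as a line. Squares are control libraries of the first file series and circles are libraries of the second. In the upper row every knockout point lies above, and in the lower row below, every control point.

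The 13 genes lower in all 3 fits included 2 sulfotransferases, a transporter, a receptor and 4 major urinary protein genes. Sult5a1, a cytosolic sulfotransferase (chromosome 8, 123140192 to 123158315), had 4.62 CPM in library 4, 13.4 in 5, 13.7 in 10, 3.7 in 20 and 13.7 in 21. Controls of Sult5a1 had lowest 39.3, median 53.6 and highest 81.1 CPM. Its log2 fold change was -2.59 ± 0.332 SE with adjusted p = 0.000129, -2.48 (adjusted p = 0.0017) with the series term and -2.48 (adjusted p = 0.00858) in the second series. Sult3a1, another sulfotransferase and more abundant in female livers (chromosome 10, 33857721 to 33879532), had 1.54 CPM in library 4, 0.637 in 5, 7.22 in 10, 1.48 in 20 and 30.8 in 21. Its controls had lowest 50.9, median 102 and highest 244 CPM, and the log2 fold change was -4.03 ± 0.639 SE with adjusted p = 0.000879. Knockout library 21 held the highest of the 5 values of Sult3a1 and still lay below every control.

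Of 22 measured sulfotransferases, glucuronosyltransferases and sulfate donor enzymes, 8 fell and 0 rose (median -0.51), 2 with the series term. Besides these 2 came Sult1b1, 24.2 to 39.7 CPM against 41.4 to 83 (-1.11 ± 0.213 SE with adjusted p = 0.00489), and Papss2, which makes the sulfate donor, 176 to 278 against 296 to 462 (-0.94 ± 0.192 SE with adjusted p = 0.00733). Without knockout libraries 4 and 5 the count was 2. With library totals as the scale 2 rose and 7 fell.

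Lifr encodes the receptor of leukaemia inhibitory factor (chromosome 15, 7090614 to 7197489). It had 105 CPM in library 4, 126 in 5, 97.5 in 10, 57.7 in 20 and 111 in 21 in the knockouts and lowest 236, median 339 and highest 659.6 CPM in the controls. The log2 fold change of Lifr was -1.92 ± 0.255 SE with adjusted p = 0.000169 and -1.48 (adjusted p = 0.00146) with the series term. Abca8a, a lipid transporter gene (chromosome 11, 110025634 to 110095978), had 18.5 CPM in library 4, 33.7 in 5, 34.7 in 10, 28.9 in 20 and 31.7 in 21. The controls of Abca8a had lowest 74.8, median 91.8 and highest 109.8 CPM, so the groups were well apart (-1.65 ± 0.215 SE with adjusted p = 0.000131). Mcm10, a factor that loads at replication origins, lay at 6.68 to 21.5 CPM against 32.6 to 77.3 (-1.95 ± 0.31 SE with adjusted p = 0.000821), lower where the other 33 measured replication genes had 3 higher and 0 lower. Pcp4l1, a calmodulin-binding peptide gene, was at 11.1 to 27.4 against 41.4 to 97.7 CPM (-1.76 ± 0.267 SE with adjusted p = 0.000572), Mmd2 at 21.5 to 46.3 against 81 to 133 (-1.59 ± 0.281 SE with adjusted p = 0.00234) and Tmie, known from the hair cell channel complex, at 5.73 to 11.6 against 14.5 to 31.6 (-1.44 ± 0.295 SE with adjusted p = 0.00733).

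Major urinary protein genes had the largest decreases among the 13 after Try4, a trypsinogen gene described further on. They encode pheromone carriers, are male-biased and are near-identical copies of each other, so single members are uncertain. Mup12 had 0 CPM in library 4, 0 in 5, 0.722 in 10, 0 in 20 and 2.57 in 21 of the knockouts and lowest 6.37, median 24 and highest 96.2 CPM in the controls (-6.08 ± 0.765 SE with adjusted p = 1.72e-05). Mup11 lay at 0 to 4.28 CPM in the knockouts and 4.24 to 660.05 in the controls, the highest in library 8 (-7.44 ± 1.26 SE with adjusted p = 0.00127). Mup17 lay at 0 to 5.14 and 4.24 to 204 CPM, the highest in library 6 (-5.71 ± 1.16 SE with adjusted p = 0.00584). For both, knockout library 21 lay just above control library 19, so the groups overlapped there. Mup18 had 0 to 6.85 CPM in the knockouts and 19.4 to 84.5 in the controls (-4.91 ± 0.727 SE with adjusted p = 0.000364). Of 16 measured male-biased genes 8 fell and 0 rose (median -1.86), and 3 with the series term. Of 18 female-biased genes 4 fell and 1, Prom1, rose (median -0.79), and 1 each way with the series term. Both lists thus held more lower than higher members. Among the female-biased genes Abcd2, a peroxisomal transporter (-1.02 ± 0.229 SE with adjusted p = 0.0116), and Cyp3a44 (-3.23 ± 0.944 SE with adjusted p = 0.0369) fell with Sult3a1. Without knockout libraries 4 and 5 the lower counts were 2 of the male-biased and 2 of the female-biased list. Sex was not given in the labels used here. Of 19 genes of the growth hormone and IGF axis, which sets these differences, 3 fell and 0 rose (median -0.46). These were Lepr (-2.56 ± 0.537 SE with adjusted p = 0.00777), Igfbp4 (-0.71 ± 0.201 SE with adjusted p = 0.0347) and Igfbp2 (-1.25 ± 0.349 SE with adjusted p = 0.0369), and none was called with the series term by edgeR, where 5 were lower at an unadjusted p under 0.05. The growth hormone receptor Ghr had a log2 fold change of -0.78 ± 0.242 SE with adjusted p = 0.0504.

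**Figure D3:**
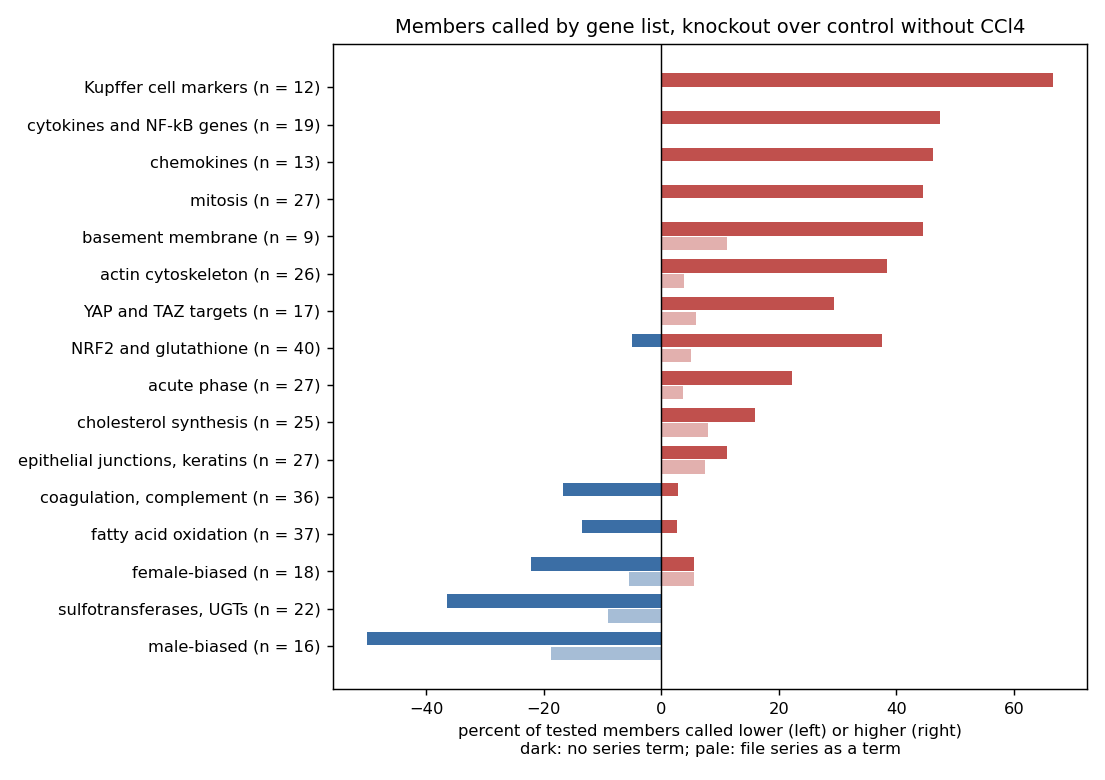
Share of the tested members of 16 gene lists that were called lower (left, blue) or higher (right, red) in knockout hepatocytes without CCl4, in percent. Dark bars are the fit without the file series and pale bars the fit with it as a term. Kupffer cell markers had the largest share higher, 8 of 12, and male-biased genes the largest share lower, 8 of 16, of the lists shown.

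Of 40 measured genes of the NRF2 and glutathione list, 15 rose, 2 fell and 23 were not called (median 0.43), and with the series term 2 rose, Pgd and Srxn1. Gstm3, a glutathione transferase with close paralogs, had 336 CPM in library 4, 306 in 5, 230.3 in 10, 2585 in 20 and 254 in 21 against lowest 19.1, median 40.9 and highest 74 CPM in the controls (4.02 ± 0.716 SE with adjusted p = 0.00584). Library 20 thus stood far above the other knockout libraries, and all 5 were above the controls. Akr1b7, an aldo-keto reductase, lay at 1.71 to 29.3 against 0 to 4.51 CPM (2.88 ± 0.575 SE with adjusted p = 0.0063), Gsta4 at 144 to 324 against 47.6 to 138 (1.31 ± 0.266 SE with adjusted p = 0.00733) and the pentose phosphate enzyme Pgd at 20.9 to 73 against 17 to 22.7 (1.09 ± 0.224 SE with adjusted p = 0.00733). Leaving out knockout libraries 4 and 5 left 6 higher members, and leaving out 20 left 9.

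Of 25 measured cholesterol synthesis genes 4 rose and 0 fell (median 0.49, and 0.89 with the series term, by which 2 rose). Lss, lanosterol synthase, had 238 CPM in library 4, 128 in 5, 149 in 10, 113 in 20 and 90.8 in 21 against lowest 23.3, median 42.6 and highest 64.6 CPM in the controls (1.74 ± 0.264 SE with adjusted p = 0.000614, and 1.69 (adjusted p = 0.0147) with the series term). Mevalonate kinase, Mvk (0.87 ± 0.202 SE with adjusted p = 0.0136), squalene synthase, Fdft1 (0.92 ± 0.224 SE with adjusted p = 0.0176), and Acat2 (0.72 ± 0.203 SE with adjusted p = 0.0352) were the others. Without libraries 4 and 5 the count was 1. In the list of fetal liver genes the desaturase gene Scd2, 9.38 to 71.4 against 0.693 to 5.87 CPM (3.23 ± 0.497 SE with adjusted p = 0.00082), and Ly6d (3.56 ± 0.636 SE with adjusted p = 0.00425) rose, with Tspan8 as the other of 3 higher among 7.

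Fatty acid oxidation genes fell without the series term, 5 of 37 with 1 higher (median -0.54), where edgeR called 3.23% of all genes tested lower. DESeq2 called 14 of the 37 lower and limma voom 12, with 1 higher each. Over all 9679 genes DESeq2 called 424 lower and limma voom 347. With the term the median was -0.51 and edgeR called 0, with 18 lower and 0 higher at an unadjusted p under 0.05. Bdh1, an enzyme of ketone body metabolism, lay at 98.6 to 149 against 187 to 375 CPM (-1.1 ± 0.224 SE with adjusted p = 0.00715), the carnitine carrier Slc25a20 at 33.4 to 71.9 against 79.8 to 99.7 (-0.78 ± 0.176 SE with adjusted p = 0.0119), the trifunctional enzyme subunit Hadha at 121 to 184 against 213 to 362 (-0.83 ± 0.21 SE with adjusted p = 0.0207) and the nuclear receptor gene Ppara at 48.8 to 132 against 139 to 478 (-1.59 ± 0.351 SE with adjusted p = 0.0125). Among mitochondrially encoded transcripts 3 of 15 were lower, 0 with the series term by edgeR (3 lower at an unadjusted p under 0.05). The ribosomal RNA mt-Rnr2 lay at 178886, 170967 and 186489 CPM in the 3 first-series controls and at 61435, 65801 and 147875 in the others (log2 fold change -1.41 ± 0.341 SE with adjusted p = 0.0165, -0.73 (adjusted p = 0.206) with the term). Those 3 libraries took the highest shares of this transcript. The receptor gene Nr1i3, which regulates detoxification, likewise went from -2.3 ± 0.677 SE with adjusted p = 0.0398 to -0.23 (adjusted p = 0.938) with the term.

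Plasma protein genes split. Of 27 acute phase genes 6 rose and 0 fell (median -0.03), and Cp alone rose with the series term. The siderophore-binding Lcn2 had 678 CPM in library 4, 417 in 5, 916 in 10, 1109.8 in 20 and 341 in 21 against lowest 27, median 50.02 and highest 318 CPM (2.95 ± 0.608 SE with adjusted p = 0.0112). Control library 9 gave that highest value, and the groups still did not overlap. Haemopexin, Hpx (0.82 ± 0.231 SE with adjusted p = 0.0336), and the endotoxin receptor Cd14 (2.85 ± 0.546 SE with adjusted p = 0.00659), the latter macrophage-rich, were called without the term only. Of 36 coagulation and complement genes 6 fell and 1 rose (median -0.16), 0 with the series term by edgeR (5 lower and 2 higher at an unadjusted p under 0.05), and with library totals as the scale 2 fell, 2 rose and the median was 0.10. Mannose-binding lectin Mbl2 (-1.01 ± 0.242 SE with adjusted p = 0.0164), factor VII, F7 (-0.99 ± 0.267 SE with adjusted p = 0.0296), and F13b (-0.82 ± 0.226 SE with adjusted p = 0.0306) were lower. Of 16 apolipoprotein genes Apom (-0.76 ± 0.168 SE with adjusted p = 0.0106) and Apoa2 (-0.80 ± 0.214 SE with adjusted p = 0.0281) fell and 0 rose. With the series term edgeR called 0 of the 16 (3 lower at an unadjusted p under 0.05). The hepatocyte marker genes Serpina1c (-1.1 ± 0.263 SE with adjusted p = 0.0158), which fell, and Ttr (-0.59 ± 0.2004 SE with adjusted p = 0.0721), which did not pass the test, were lower by these estimates.

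Bile acid genes changed little in number. Of 15 synthesis genes 1 fell and 0 rose without the term, Cyp7b1, the oxysterol hydroxylase of the alternative pathway (-1.42 ± 0.412 SE with adjusted p = 0.039), and with it 1 fell, Slc27a2, an acyl-CoA synthetase (-0.92 (adjusted p = 0.0394), and -0.55 ± 0.247 SE with adjusted p = 0.167 without the term). Of 13 transport genes Slc51b, a subunit of the basolateral exporter, rose, 12.3 to 40.7 against 1.7 to 9.39 CPM (2.1 ± 0.394 SE with adjusted p = 0.0041), and the uptake carrier Slco1b2 fell (-1.3 ± 0.333 SE with adjusted p = 0.024). With the term edgeR called 0 of the transport genes (3 higher and 3 lower at an unadjusted p under 0.05). The xenobiotic receptor Ahr rose (0.91 ± 0.265 SE with adjusted p = 0.039). It was called in 5 of the 11 fits that left out 1 library, and in 0 of these with the series term. Of 20 periportal genes Etnppl (-1.11 ± 0.292 SE with adjusted p = 0.027) and Hal, histidine ammonia lyase (-0.78 ± 0.222 SE with adjusted p = 0.0353), fell with 1 other. With the term edgeR called 0 of the 20 (1 higher and 5 lower at an unadjusted p under 0.05). With library totals as the scale 0 fell and 1 rose, and without knockout libraries 4 and 5 edgeR called 0. Of 14 hepatocyte transcription factor genes edgeR called 0 (0 higher and 1 lower at an unadjusted p under 0.05), as did DESeq2 and limma voom. Of 18 clock genes edgeR called 0 (0 higher and 1 lower at an unadjusted p under 0.05), and DESeq2 and limma voom called 1 lower each. Of 24 immediate early genes 0 were called without the term (6 higher and 1 lower at an unadjusted p under 0.05; 2 higher by DESeq2 and 1 by limma voom), and Klf6 rose with it (1.58 (adjusted p = 0.0105)).

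Some knockout libraries also held more RNA of liver cells other than hepatocytes. The summed Kupffer cell markers made up 1479 and 779 CPM of the library total in knockout libraries 4 and 5 and 132, 178 and 257 in 21, 10 and 20. In the controls they made up 11.3 to 198, and 6 of the 12 markers were at 0 in control library 9. Thus 2 knockout libraries stood above the rest, and 2, 10 and 21, lay within the control range. Stellate cell markers were at 179 to 1355 CPM in the knockouts and 14 to 457 in the controls, and endothelial markers at 94.2 to 604 and 18.9 to 305. Without the series term 8 of 12 Kupffer markers were higher (median 2.73), with Timd4 (3.21 ± 0.655 SE with adjusted p = 0.00573), Cd68 (2.87 ± 0.607 SE with adjusted p = 0.0101), Marco (4.43 ± 1.07 SE with adjusted p = 0.0231) and Clec4f (2.98 ± 0.807 SE with adjusted p = 0.0369). With the term edgeR called 0 (8 higher at an unadjusted p under 0.05), and without libraries 4 and 5 it called 0 (1 higher at an unadjusted p under 0.05) at a median of 1.18. Of 12 endothelial markers Cdh5 alone was higher (2.59 ± 0.696 SE with adjusted p = 0.0322). Of 11 stellate markers edgeR called 0 (3 higher at an unadjusted p under 0.05), DESeq2 0 and limma voom 3 higher, and the receptor Pdgfrb had a log2 fold change of 1.9 ± 0.706 SE with adjusted p = 0.0898.

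Macrophage-rich genes made up 7.69% of the genes tested and 25.6% of those called higher, 115 genes. The name does not set macrophages apart from every other cell type. It applied to all 12 Kupffer and all 12 endothelial markers, to 9 of 11 pancreatic and to 0 of 11 stellate markers. Of the 40 genes called in all 3 fits 7 were macrophage-rich, 2 of them higher, and the other 5, the 4 Mup genes and Try4, met that definition at knockout levels near 0. Without libraries 4 and 5, 163 genes were called (129 higher and 34 lower), and 32 of the 40 remained called, Alpl, Jcad, Mup17, Tmie, Try4, Eppk1, Srxn1 and Ets2 being lost. When the series term was used as well, 21 of the 40 remained called. Among the largest increases of genes with at least 10 CPM in the higher group were leukocyte genes, Cd53 (4.25 ± 0.921 SE with adjusted p = 0.00845) and Wfdc17 (3.63 ± 0.79 SE with adjusted p = 0.0122), and the lipid carrier gene Fabp7 (5.81 ± 1.01 SE with adjusted p = 0.0022), all 3 macrophage-rich and all highest in library 4. For each of these 3 the groups overlapped.

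**Figure D4:**
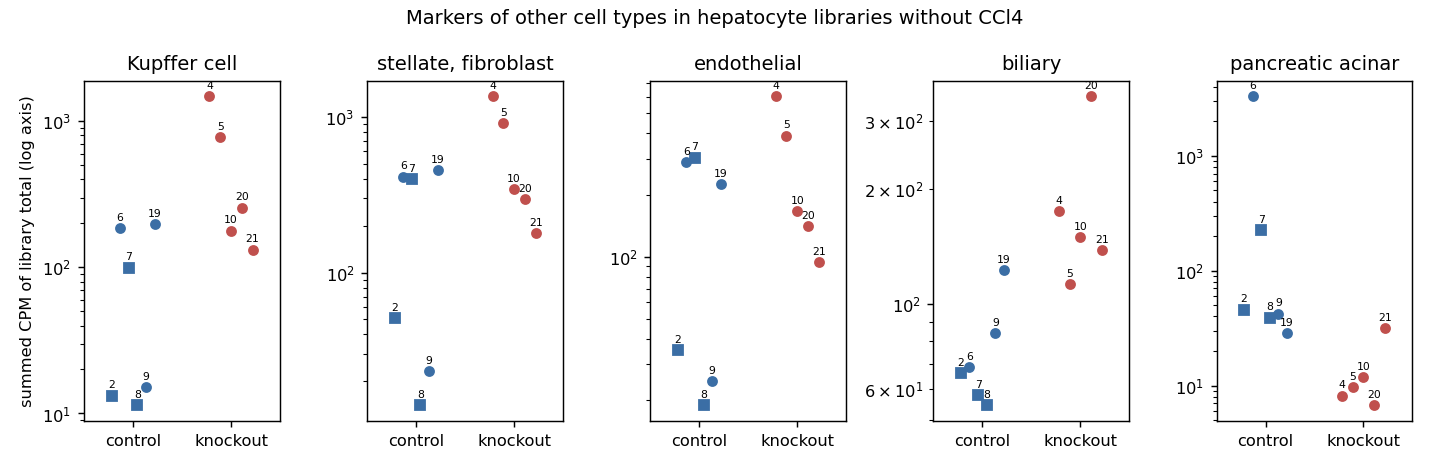
Summed CPM of the library total (log axis) of the markers of 5 other cell types in 6 control (blue) and 5 knockout (red) hepatocyte libraries without CCl4, 1 point per library with its number. Squares are control libraries of the first file series. Knockout libraries 4 and 5 are highest for Kupffer, stellate and endothelial markers, knockout library 20 for biliary markers and control library 6 for pancreatic markers.

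Inflammatory genes were higher as well in the fit without the series term. Knockout libraries 4 and 5 had the highest summed levels of chemokine and of cytokine genes, but the other libraries were not ordered like their Kupffer markers. Control library 9, at 15.2 CPM of the library total for Kupffer markers, had 849 CPM of chemokine genes, against 794 and 813 in knockout libraries 10 and 21. Of 13 measured chemokine genes 6 rose and 0 fell (median 2.15), and of 19 cytokine and NF-kB genes 9 rose and 0 fell (median 1.49). With the series term edgeR called 0 of each, with 9 higher and 1 lower, and 10 higher and 0 lower, at an unadjusted p under 0.05. Without libraries 4 and 5, 1 of each list was higher. The monocyte attractant Ccl2 had 47.3 CPM in library 4, 26.7 in 5, 14.4 in 10, 12.6 in 20 and 2.57 in 21 against lowest 0.212, median 2.06 and highest 10.6 CPM (3.09 ± 0.69 SE with adjusted p = 0.0132), with library 21 within the control range. Ccl3 (3.86 ± 0.738 SE with adjusted p = 0.00293) and Tnf (3.5 ± 0.713 SE with adjusted p = 0.00733) were macrophage-rich like Ccl2. Cxcl14, a chemokine of epithelia and fibroblasts, was not macrophage-rich, with 12.8 CPM in library 4, 12.7 in 5, 2.89 in 10, 19.2 in 20 and 2.57 in 21 against lowest 0, median 0.859 and highest 1.06 CPM (3.59 ± 0.616 SE with adjusted p = 0.00094), nor was the NF-kB subunit gene Nfkb2, at 9.55 to 15.4 against 2.35 to 6.06 CPM (1.55 ± 0.29 SE with adjusted p = 0.0041). The groups did not overlap for Cxcl14 and Nfkb2. The part of transcripts of macrophages or of other cell types in the list counts was not tested.

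Biliary markers were sought because the deletion was directed at bile duct cells. Their summed level was 113 to 348 CPM of the library total in the knockouts and 54.4 to 123 in the controls. Of 12 markers 7 passed the filter on low counts, and 2 of these were higher and 0 lower (median 1.19), 1 with the series term. DESeq2 called 4 of the 7 higher and limma voom 3, with 0 lower each. Prom1, a stem and duct cell membrane protein, had 12.8 CPM in library 4, 15.3 in 5, 5.05 in 10, 38.5 in 20 and 15.4 in 21. Its controls had lowest 0, median 1.07 and highest 5.3 CPM (3.5 ± 0.536 SE with adjusted p = 0.000572, and 3.34 (adjusted p = 0.0226) with the term). Tspan8 was highest in library 20 as well, at 11.1 CPM (2.61 ± 0.64 SE with adjusted p = 0.0154). Sox9, the ductal transcription factor, had 67.8 CPM in library 4, 37.6 in 5, 80.9 in 10, 85.1 in 20 and 78.8 in 21 against lowest 18, median 22.3 and highest 53 CPM and was not called (1.19 ± 0.369 SE with adjusted p = 0.0547). The biliary share in libraries 4, 5 and 20 was thus not ordered like the Kupffer share.

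Cell division genes rested on 1 library. Of 27 mitosis genes 12 rose and 0 fell (median 2.93) in the fit without the term. Their summed level was 652 CPM of the library total in knockout library 20, and at most 61 in the other 4 and 50.8 in the controls. Without library 20, edgeR called 0 (median 0.83), and with the series term it called 0 (20 higher at an unadjusted p under 0.05). On all libraries limma voom called 0 (7 higher at an unadjusted p under 0.05) and DESeq2 called 19 higher. The checkpoint kinase gene Bub1b had 14 counts in the 5 knockout libraries and 1 in the controls, a ratio of 34.5 per TMM-scaled library total (exact 95% counting interval 5.24 to 1457), and the kinetochore gene Ndc80 18 and 3, a ratio of 14.8 (4.31 to 78.3). Both intervals pool counts over libraries and leave out the spread between libraries, so they do not test the genotype. Ndc80 had 9.62 CPM in library 20 and at most 1.44 in the other knockouts. Replication genes Lig1 (79.2 CPM in library 20 and at most 22.9 in the other knockouts), Uhrf1 and Mcm6 were highest in library 20 too. Without that library 0 of the replication list were higher and Mcm10 was lower.

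Pancreatic enzyme transcripts were most abundant in 1 control library. Their summed level was 3284 CPM of the library total in control library 6, at most 224 in the other controls and at most 31.7 in the knockouts. Pnlip, Ctrb1, Prss2 and Try4 were among the 8 called genes with the largest decrease. Try4 had 2 counts in the 5 knockout libraries and 483 in the controls, of which 393 were in library 6 and 89 in library 7. Pnlip had 2 and 637 counts, of which 472 were in library 6 and 142 in library 7. The other 4 controls had 0 to 1 counts of Try4 and 0 to 18 of Pnlip. Pnlip, Ctrb1 and Prss2 were not called without control library 6, nor without any 1 of the 5 knockout libraries. Of the 11 measured markers, on all libraries, edgeR called 5 lower and DESeq2 9. There limma voom called 0 (1 lower at an unadjusted p under 0.05).

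The same comparison after CCl4 (1 ml/kg, livers taken 48 h later) rests on other libraries, 4 knockout and 3 control, with their own genotype contrast in the same fit. Control libraries 12 and 15 were of the first file series, with 4910846 and 5790583 counts. The third control and all 4 knockout libraries were of the second, with at most 2411576. File series, depth and genotype are thus partly mixed after CCl4 too. In this contrast 17 of 9679 genes were called (0.176%), and 3 with the series as a term. Of the 17 genes, 9 were also called without CCl4. Those 9 included Cib3, with a log2 fold change of 8.86 (adjusted p = 3.66e-05) after CCl4, Pls1 with 2.47 (adjusted p = 0.00865), Krt8 with 1.35 (adjusted p = 0.0374), BC005561 with 1.42 (adjusted p = 0.00865), Sult5a1 with -2.34 (adjusted p = 0.0165), Ocln with 1.67 (adjusted p = 0.0178) and Tspan8 with 2.58 (adjusted p = 0.0374). Of the 27 genes higher in all 3 fits 23 had the same sign after CCl4 (median log2 fold change 1.79 without and 0.74 after), and of the 13 lower genes 12 did (median -2.59 and -1.64). These genes were chosen by their values without CCl4, so the medians do not compare the effects without and after it. A difference was called for 2 of the 27 and 1 of the 13. The share of all genes tested that kept their sign was not computed. One of the 3 CCl4 control libraries, 15, has a label naming the other genotype, and without it 4 genes were called after CCl4.

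The difference between both contrasts was tested itself, and 21 genes were called (0.217%). The Nid1 increase was smaller after CCl4, where it was 0.74 (adjusted p = 0.458), with a difference of -3.18 (SE 0.588, adjusted p = 0.0393). For Myc it was -0.12 (adjusted p = 0.914), with a difference of -2.83 (SE 0.557, adjusted p = 0.0393), and the decrease of Abca8a was -0.04 (adjusted p = 0.956), with a difference of 1.61 (SE 0.334, adjusted p = 0.0452). Fabp7 (-6.78 (SE 1.37, adjusted p = 0.0439)) and Ccl3 (-4.72 (SE 1.02, adjusted p = 0.0452)), both macrophage-rich, differed as well. The count of 21 was 2 without library 15 and 0 without any 1 of control libraries 2 and 8 and knockout libraries 4 and 5, and it ran up to 93 without knockout library 21. For Cib3 (1.72 (SE 1.14, adjusted p = 0.68)), Krt8 (-0.17 (SE 0.335, adjusted p = 0.926)) and Sult5a1 (0.25 (SE 0.568, adjusted p = 0.938)) the difference was not called, which does not show equal effects.

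**Figure D5:**
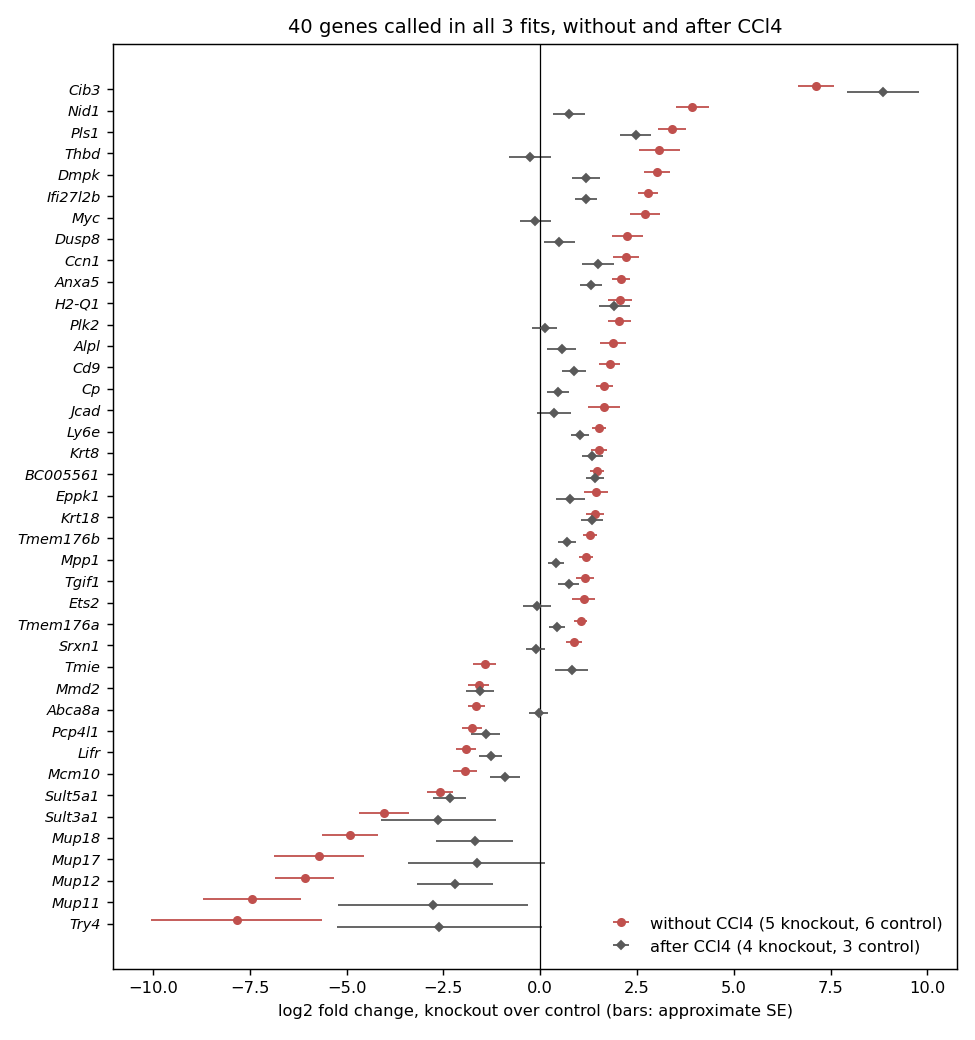
Log2 fold change of knockout over control for the 40 genes called in all 3 fits, without CCl4 (red circles, 5 against 6 libraries) and after CCl4 (grey diamonds, 4 against 3 libraries). Bars are approximate standard errors. Cib3, Pls1, Krt8, BC005561 and Sult5a1 were called in both, and Nid1, Myc and Abca8a were called for the difference.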

How the data were processed

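The deposited table held raw counts of 3′ tags (QuantSeq FWD) for 24951 genes, made by the authors with Trimmomatic 0.39 and HISAT2 2.1.0 against build GRCm38, per the submitters' processing notes. Which counter, annotation and strand setting were used is not given in the sources used here. Of 18 hepatocyte libraries in 4 groups, 11 carry the main comparison. The counts were fitted together in edgeR 4.0.16 (R 4.3.3) with TMM factors, filterByExpr and the robust quasi-likelihood test, and p-values were adjusted by Benjamini and Hochberg over all genes tested. Standard errors are approximate, the log2 fold change divided by the square root of F. The second series was fitted with all its hepatocyte libraries. Alternatives were other scalings and filters, DESeq2 1.42.0, limma 3.58.1 (voom), libraries left out and thinning of counts to 1 total. The scripts' tests were tested on simulated data. Positions are from GENCODE and promoters from RefSeq. Members and 55 gene lists were chosen with earlier results of these data known. Genes are named if they are Yap1 or Wwtr1, among the 15 largest changes each way called in all 3 fits, among the 8 largest each way with a mean CPM of 10 or more in whichever group was higher, or among the 4 of lowest p in a list, and 10 others were named after their values were seen. Reads of near-identical copies (Mup, Gst, Sult, H2-Q and trypsinogen genes) and of overlapping genes could not be assigned with certainty. An exception that meets the rule is not reported here.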

Additional observations from a re-analysis of the deposited data

Results flagged for a closer look

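In 17 of 244 groups of values checked, 1 library stood apart from the others of its group, and chance gives about 1 in 20. Knockout library 20 stood apart for Gstm3 (2580 CPM), Ly6d (85.1), Ndc80 (9.62) and Lig1 (79.2), each time as the highest. Knockout library 21 did so for Mup17 (5.14), Mup18 (6.85) and Mup1 (5.14) as the highest and for Mpp1 (28.3). Knockout library 5 had 37.6 CPM of Sox9, the lowest of its group, and knockout library 4 had 178 of Mbl2. Among the controls, library 9 stood apart for Lcn2 (318) and Lepr (18.9), library 2 for Tmie (14.5) and Scd2 (0.693), library 19 for Fdft1 (20.2), library 8 for Slc51b (1.7) and library 7 for Bub1b (0.205).

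The knockout effect differed after CCl4 from that without it for 5 of the named genes by edgeR's test of the difference. The difference in log2 fold change was -3.18 for Nid1, -2.83 for Myc, 1.61 for Abca8a, -6.78 for Fabp7 and -4.72 for Ccl3.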

How the results depend on the processing

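Of 762 called genes (449 higher, 313 lower), 79 (61 and 18) were called with the file series as a term, 50 (36 and 14) in the second series alone, 336 (199 and 137) with only the 2 groups fitted, 1438 (1313 and 125) with library totals as the scale, 271 (166 and 105) after thinning and 163 (129 and 34) without knockout libraries 4 and 5, an alternative chosen after seeing the data. Leaving out 1 library gave 288 to 922 called, 208 to 554 higher and 80 to 394 lower. With the series term these were 30 to 182, 20 to 124 and 10 to 58, with only the 2 groups 38 (29 and 9), and without libraries 4 and 5 41 (33 and 8). RLE factors, no filter, DESeq2, voom, a fit that is not robust, edgeR's earlier method and leaving out library 15 gave 543 to 990. After CCl4 the 17 called genes were 3 with the series term, 1 in the second series, 38 without a filter, 49 with voom and 4 without library 15, and 13 to 23 with 1 library left out. The 21 genes called for the difference were 54 with the series term, 0 in the second series, 34 with RLE factors, 37 with library totals, 113 without a filter, 6 with voom, 2 without library 15, 3 after thinning, 0 with edgeR's earlier method and 0 without libraries 4 and 5, and 0 to 93 with 1 library left out. Fewer genes or libraries enter some of these fits, and otherwise the cause was not tested. The sign of Yap1 changed, with log2 fold changes of -0.012 with the series term, -0.031 without a filter and -0.015 to 0.075 with 1 library left out. With the series term it was 0.045 with only the 2 groups, 0.018 without libraries 4 and 5 and -0.056 to 0.041 with 1 library left out. For Nr1i3 with the series term the log2 fold change was 0.040 without libraries 4 and 5, 1.44 without control library 6, 0.18 without knockout library 4 and -0.64 to 1.44 with 1 library left out. No paired analysis was possible because the labels give the libraries no replicate numbers shared between the groups. The second series' depth of 991175 to 1835324 counts limits what low genes can show.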
